A study of Saccharomyces cerevisiae SK1 with 28 samples.

Results

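The cytosolic ribosomal protein genes of budding yeast, together with the translation factor genes EFB1 and HYP2, were followed through 14 lists of ChIP-seq promoter summits. A gene belonged to the set when its symbol was RPS or RPL followed by a number, one of the stalk protein names RPP0, RPP1A, RPP1B, RPP2A and RPP2B, or EFB1 or HYP2. This gave 139 of 6021 protein-coding genes, or 2.31%. They comprised 56 genes of the small subunit, 76 genes of the large subunit, 5 stalk genes and the 2 factor genes. Of these, 11 had a listed summit in at least 1 library and 128 had none.

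All libraries came from wild-type SK1, a laboratory strain known for efficient sporulation. The 7 states were vegetative cells exposed to DTT, 6 h and 21 h in BYTA medium (premeiotic starvation), sporulation medium for 5.5 h, 6 h 45 min or 8 h (meiosis), and untreated vegetative cells in exponential growth. Each state had 2 ChIP libraries with a summit table each and 2 inputs, and the own signal of the inputs was not analysed here. Not given in the sources used here are the protein that was immunoprecipitated, the dose and duration of DTT, and the depth of sequencing. Libraries listed between 4 and 296 summits, and the lowest listed score, the authors' own value, lay between 246.72 and 400.872. A gene missing from a list was therefore not listed at that library's limit and may still be bound. As a check of the DTT label, 10 of 12 endoplasmic reticulum (ER) stress marker genes were listed in both DTT libraries. This was 83.3%, against 4.68% of all genes. In both vegetative libraries 2 of 12 were listed (16.7% against 0.249%), and in both 6 h BYTA libraries 4 of 12 (33.3% against 1.74%). The marker share lay above that of all genes in each of these states. The DTT lists were also longer, at 296 and 245 summits against 18 and 13 in vegetative cells. These counts therefore do not single out the DTT label.

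Ribosomal proteins build the small subunit, which decodes mRNA, and the large subunit, which forms peptide bonds. The stalk proteins of the large subunit recruit elongation factors. Most yeast ribosomal protein genes exist as pairs of near-identical copies, are among the most strongly transcribed genes of growing cells, and are regulated through Rap1, Fhl1, Ifh1, Hmo1 and Sfp1. Their transcription is known to drop when nutrients run out and when protein folding in the ER is disturbed. EFB1 encodes the guanine nucleotide exchange subunit for elongation factor eEF1A. HYP2 encodes the main form of eIF5A, the hypusine-bearing factor that helps the ribosome through difficult peptide sequences.

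DTT-treated cells had 3 members listed in both libraries, HYP2, EFB1 and the small-subunit gene RPS24A. This was 2.16% of the 139 genes, while 4.68% of all protein-coding genes were listed in both DTT libraries. RPS24A was the only ribosomal protein gene among them, 1 of 137 or 0.73%. At 6 h in BYTA, HYP2 and EFB1 were listed in both libraries, 1.44% of the members against 1.74% of all genes. No member was listed in both libraries at 21 h in BYTA (0.448% of all genes), at 5.5 h (0.116%), 6 h 45 min (0.216%) or 8 h in sporulation medium (0.282%), or in vegetative cells (0.249%). Over all 14 libraries the 11 listed members made up 7.91% of the set, against 9.15% of all genes. The share of members listed in both DTT libraries was below that of all genes, and that of the ribosomal protein genes alone was lower again, while at 6 h in BYTA and over all libraries the members' shares lay nearer to the background. These shares rest on 3, 2 and 11 genes, and their difference from the background was not tested.

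**Figure D1:**
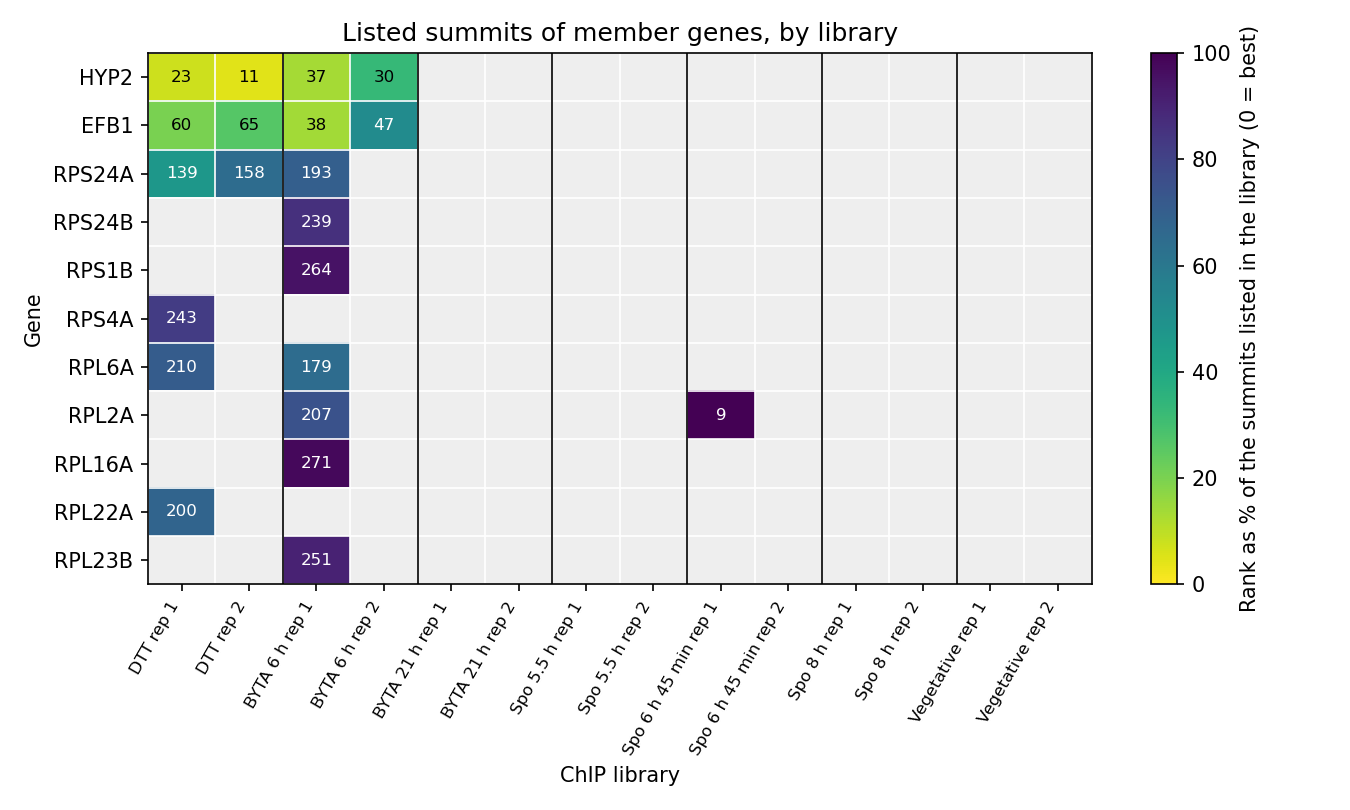
Rank of the listed summit of each of the 11 listed members (rows) in each of the 14 ChIP libraries (columns, 2 per state), where 1 is the highest score of that library. Colour gives the rank as a percentage of the library's summits, and grey cells were not listed. HYP2 and EFB1 fill all 4 libraries of DTT and 6 h BYTA, the other genes mostly 1 library, and 9 of the 14 columns are empty.

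Counted per library, 6 and 3 members were listed with DTT, against 0 and 0 in vegetative cells. The mean was 4.5 ± 2.12 genes with DTT and 0 ± 0 in vegetative cells (SD, n = 2 each; two-sided exact permutation test, p = 0.33, adjusted over 6 comparisons p = 1). In the 6 h BYTA libraries 9 and 2 members were listed, a mean of 5.5 ± 4.95, against 0 and 0 in vegetative cells (n = 2 each; exact permutation test, p = 0.33, adjusted p = 1). The DTT and 6 h BYTA libraries thus did not overlap with the vegetative ones, but 0.33 is the smallest p that 2 libraries against 2 can give. The numbers of all listed genes did not overlap either, at 360 and 300 with DTT and 340 and 111 at 6 h in BYTA, against 23 and 17. The lack of overlap is therefore not particular to the members. At 6 h 45 min in sporulation medium 1 and 0 members were listed, and at 21 h in BYTA, 5.5 h and 8 h in sporulation medium none (exact permutation tests, p = 1 for each of these 4 comparisons). The labels do not tie replicates to separate cultures, and their spread may therefore be technical.

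The 4 DTT and 6 h BYTA libraries were also the 4 longest lists. Members made up 1.67% of the 360 listed genes of DTT replicate 1 (95% exact Clopper-Pearson interval 0.614% to 3.59%) and 1% of the 300 genes of replicate 2 (0.207% to 2.89%). They made up 2.65% of the 340 listed genes of 6 h BYTA replicate 1 (1.22% to 4.97%) and 1.8% of the 111 genes of replicate 2 (0.219% to 6.36%). Among the short lists, replicate 1 at 6 h 45 min in sporulation medium held 1 member among 16 genes (6.25%, interval 0.158% to 30.2%), while the 21 h BYTA libraries held none among 36 and 37 genes. The vegetative libraries, with none, listed 23 and 17 genes, and an interval for their share reaches up to 14.8% and 19.5%. All 4 intervals of the DTT and 6 h BYTA libraries include the 2.31% that the set holds of all genes. The intervals cover counting error only. They treat listed genes as independent, although some genes share a summit, so setting them beside 2.31% is a description and not a set test.

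HYP2 had the best-ranked summits of the set with DTT, at rank 23 of 296 summits in DTT replicate 1 and 11 of 245 in replicate 2. In the 6 h BYTA libraries it ranked 37 of 277 in replicate 1 and 30 of 91 in replicate 2. Its window (gene SK1_05G00380, plus strand) spans positions 103825 to 104424 of SK1 chromosome V. With DTT the summit lay 425 bp upstream of the gene start in replicate 1 (position 104000) and 421 bp in replicate 2 (position 104004). In 6 h BYTA cells it lay 466 bp (position 103959) and 464 bp upstream (position 103961). Throughout, the gene start is the base next to the downstream edge of the 600-bp window.

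The HYP2 summit thus sat 42 bp further upstream at 6 h in BYTA than with DTT, while replicates of a state differed by 2 and 4 bp. No other summit of HYP2 was listed. Among the 77 genes listed in all 4 libraries of both states, the median size of such a shift was 15 bp, and 14 genes, HYP2 included, shifted by at least as much as HYP2. For 62.3% of the 77 genes the positions of the 2 states did not overlap, so a lack of overlap is common here. Genes that share a summit count separately among the 77, such as OLE1 and SDS23, with mirrored shifts of -57.5 and 57.5 bp. The number of separate summits is therefore smaller.

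UTR5, a gene of unknown function, lies head to head with HYP2, and their starts are 131 bp apart. UTR5 was listed in both vegetative libraries, at rank 6 of 18 summits in replicate 1 and 4 of 13 in replicate 2, and in no other library. With DTT the HYP2 summits lay 294 and 290 bp beyond the UTR5 start, and at 6 h in BYTA 335 and 333 bp beyond it, on the UTR5 side of the pair. In vegetative cells the UTR5 summits lay 184 and 325 bp beyond the HYP2 start, on the HYP2 side. So the same gene pair was listed in 6 libraries with the summit on opposite sides, and none of the 6 summits lay between the 2 starts. HYP2 counted as not listed in vegetative cells because those summits were downstream of its start and outside its window. The end of HYP2 is not given in the tables, so whether they lie within the gene was not determined.

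**Figure D2:**
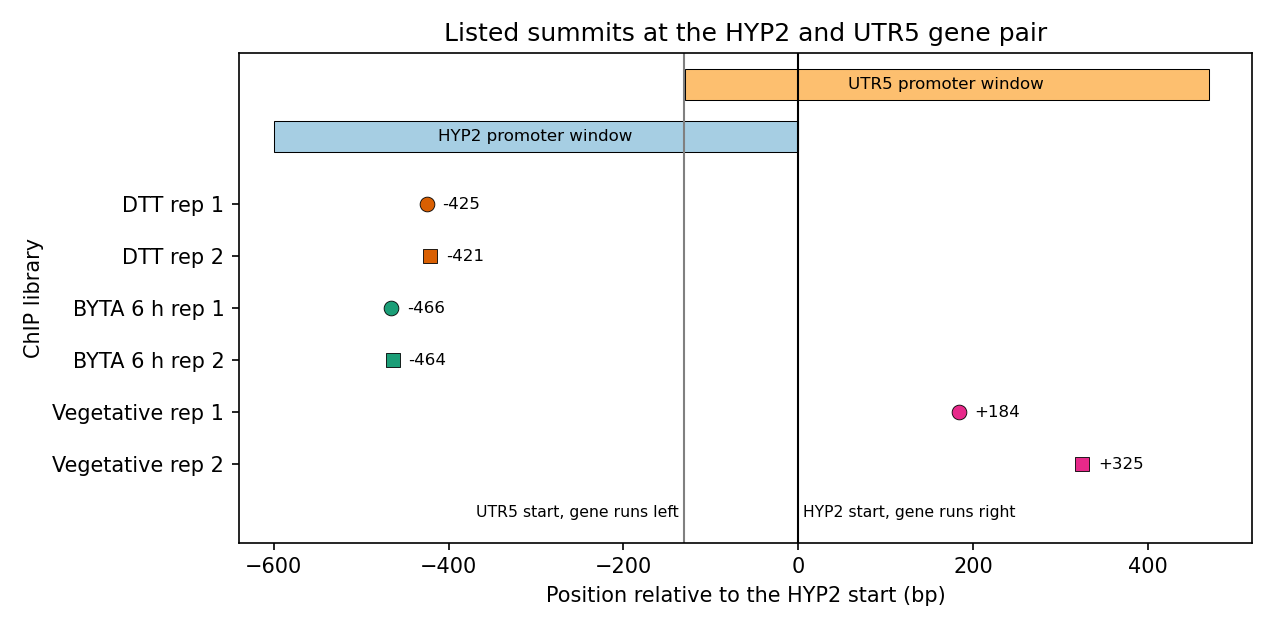
Position of the listed summit (x axis, bp from the HYP2 start, negative is upstream of HYP2) in the 6 libraries that listed HYP2 or UTR5 (y axis), with both promoter windows drawn to scale above. Summits of DTT and 6 h BYTA lie between -466 and -421, and those of vegetative cells at +184 and +325.

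EFB1 was listed in the same 4 libraries as HYP2. With DTT it ranked 60 of 296 and 65 of 245, and at 6 h in BYTA 38 of 277 and 47 of 91. Its window (SK1_01G00630, plus strand) spans positions 144734 to 145333 of chromosome I. Both DTT summits lay 388 bp upstream, at position 144946. The 6 h BYTA summits lay 424 and 398 bp upstream, the first at 144910 and the second at 144936, so the replicates differed by 26 bp.

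Each EFB1 summit also fell in the window of SSA1, the divergent neighbour that encodes a cytosolic Hsp70 chaperone. SSA1 was nearer in all 4 libraries, at 355 bp in both DTT libraries and at 319 and 345 bp at 6 h in BYTA. When summits were assigned to the closest start alone, EFB1 was no longer listed, which left 2 members in both DTT libraries and 1 in both 6 h BYTA libraries. The tables cannot tell which of the 2 genes such a summit belongs to. ANB1, which encodes the second form of eIF5A and is expressed at low oxygen, had no listed summit.

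RPS24A, which encodes the small-subunit protein eS24, was the ribosomal protein gene listed most often. With DTT it ranked 139 of 296 and 158 of 245, and in replicate 1 at 6 h in BYTA 193 of 277. Replicate 2 at 6 h in BYTA did not list it. The summits lay 206 and 227 bp upstream with DTT and 198 bp upstream at 6 h in BYTA, in the window 325131 to 325730 of chromosome V. RPS24B, its duplicate copy, was listed in replicate 1 at 6 h in BYTA, at rank 239 of 277 and 326 bp upstream. Both copies were listed for this protein alone among 59 paralogue pairs, and 7 further pairs had 1 listed copy. The 19 ribosomal protein genes without a pair, which include RPP0, and the 5 stalk genes had no listed summit.

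The other listed genes of the small subunit were RPS4A and RPS1B. RPS4A was listed in DTT replicate 1 at rank 243 of 296, 250 bp upstream. RPS1B was listed in replicate 1 at 6 h in BYTA at rank 264 of 277, 241 bp upstream, and shared this summit with TEM1, a GTPase gene of mitotic exit whose start was 365 bp away. Their copies RPS4B and RPS1A were not listed. Thus 4 of 56 small-subunit genes had a listed summit in any library, where 9.15% of all genes did.

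Of the large-subunit genes 5 of 76 were listed in any library, where 9.15% of all genes were. RPL6A was listed in replicate 1 of DTT, at rank 210 of 296 and 219 bp upstream, and in replicate 1 at 6 h in BYTA, at rank 179 of 277 and 230 bp upstream. RPL22A was listed in DTT replicate 1 at rank 200 of 296, 130 bp upstream, the shortest distance in the set. RPL2A, RPL23B and RPL16A were listed in replicate 1 at 6 h in BYTA, at ranks 207, 251 and 271 of 277.

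Their summits lay 325 bp upstream of RPL2A, 239 bp upstream of RPL23B and 262 bp upstream of RPL16A. The RPL23B summit also lay in the window of SLX8, a ubiquitin ligase subunit gene, 359 bp from its start. RPL2A, which encodes a protein near the peptidyl transferase centre, was the single member listed during sporulation. Replicate 1 at 6 h 45 min listed it at rank 9 of 9, 371 bp upstream, and replicate 2 did not. The copies RPL2B, RPL6B, RPL16B, RPL22B and RPL23A were not listed.

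Across the set, summits of ribosomal protein genes stood low in their lists and near the gene, while those of HYP2 and EFB1 stood higher and further away. The 13 listings of ribosomal protein genes ranked between 47% and 100% of the way down their lists, 12 of them below the midpoint. The 8 listings of HYP2 and EFB1 ranked between 4.49% and 51.6%, 7 of them above the midpoint. Distances to the start were 130 to 371 bp for ribosomal protein genes (median 239 bp) and 388 to 466 bp for HYP2 and EFB1 (median 422.5 bp). The median over all 1369 pairs of a summit and a window was 351 bp, with the middle 50% between 244 and 464 bp. These listings are not independent, since they repeat genes and libraries, and they were not tested. The higher and more distant side rests on HYP2 and EFB1 alone. Every EFB1 summit was shared with SSA1, whose start was nearer, so its rank and distance cannot be assigned to EFB1 alone.

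**Figure D3:**
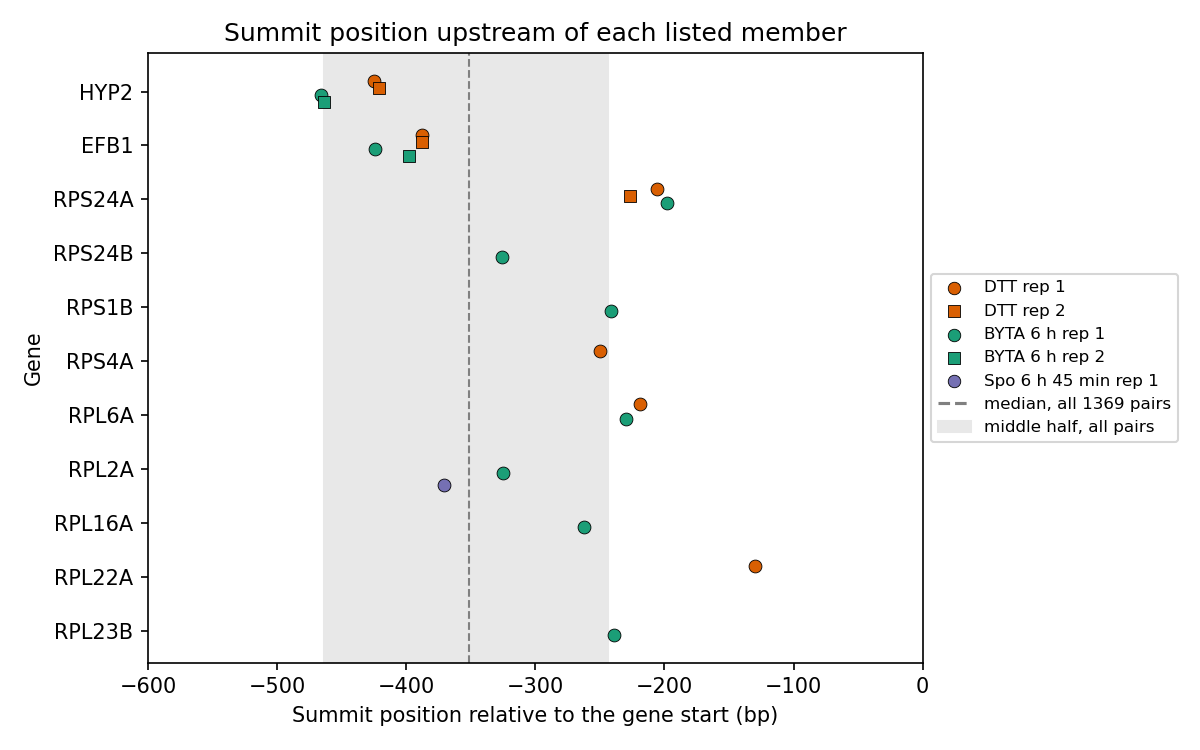
Distance of each listed summit from the gene start (x axis, bp, 0 is the gene start) for the 11 listed members (rows), coloured by state and shaped by replicate. The dashed line and grey band are the median and the middle 50% of all 1369 pairs. HYP2 and EFB1 lie between 388 and 466 bp upstream, the ribosomal protein genes between 130 and 371 bp. Every EFB1 summit also lay in the window of SSA1, whose start was nearer.

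Low rank went with listing in 1 replicate over all genes of DTT replicate 1 and 6 h BYTA replicate 1, the only libraries examined for this. In DTT replicate 1, 116 genes stood at rank 200 or worse, where RPL22A, RPL6A and RPS4A were. Replicate 2 listed 49 of them, 42.2%, against 233 of the 244 better-ranked genes, 95.5%. In replicate 1 at 6 h in BYTA, 127 genes stood at rank 179 or worse, as did all 7 ribosomal protein genes listed there. Replicate 2, with 91 summits, listed 2 of them, 1.57%, against 103 of the 213 better-ranked genes, 48.4%. It held 111 genes against 340 in replicate 1, so most of those could not recur. Both rank limits were set at the best rank of the ribosomal protein genes that replicate 1 alone listed, so they were taken from these same genes. Between states, 4 members were listed in at least 1 library of DTT and at least 1 of 6 h BYTA, HYP2, EFB1, RPS24A and RPL6A. They were 4 of 6 members listed with DTT, 66.7%, and 4 of 9 listed at 6 h in BYTA, 44.4%. Over all genes, 203 were listed in both states, 53.7% of the 378 genes listed with DTT and 58.7% of the 346 listed at 6 h in BYTA. The difference was not tested.

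Several genes that follow a member on the same strand were listed with DTT and in vegetative cells, although no member was listed in the vegetative libraries. There are 64 such genes, 1.06% of all, by the order of protein-coding genes in the R64 reference. This grouping was chosen after the values were seen, and the SK1 order was not checked. With DTT 2 of the 64, FMP25 and ATG41, were listed in both libraries, 3.12% against 4.68% of all genes, and 7 in at least 1 library, 10.9% against 6.28% of all genes. The share therefore lay below the background by listing in both libraries and above it by listing in at least 1. In the 6 h BYTA libraries 1 was listed in both, 1.56% against 1.74%, and 3 in at least 1, 4.69% against 5.75%. In vegetative cells 2 were listed in both libraries, 3.12% against 0.249%, and 6 in at least 1, 9.38% against 0.415%. These 6 made up 24% of the 25 genes listed there. For 21 h in BYTA and the 3 times in sporulation medium none was listed, against 0.764%, 0.482%, 0.448% and 0.515% of all genes.

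The 6 genes in vegetative cells were AAR2 after RPS8A, TRS31 after RPL27B, RRG1 after RPS13, YGK1 after RPL28, NAT2 after RPL24B and FMP25 after RPL10. The summit at AAR2, a splicing factor gene, lay 545 bp upstream in DTT replicate 2 (rank 225 of 245), against 546 and 555 bp in vegetative cells (ranks 10 of 18 and 9 of 13). At TRS31, which encodes a subunit of the TRAPP vesicle tethering complex, it lay 213 bp upstream in DTT replicate 2 (rank 236 of 245), against 206 and 193 bp in vegetative cells (ranks 8 of 18 and 7 of 13). These 2 genes were listed in both vegetative libraries and the other 4 in 1 library each. RRG1 had its summit at 517 bp in DTT replicate 2, against 528 bp in vegetative replicate 1. YGK1 had it at 520 bp in DTT replicate 2, against 523 bp in vegetative replicate 2. FMP25 had it at 407 and 399 bp with DTT, against 419 bp in vegetative replicate 1. NAT2 was listed in vegetative replicate 1, at 208 bp, and in no DTT library.

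DTT replicate 2 listed 5 of these 6 genes, all but NAT2, and DTT replicate 1 listed FMP25 alone. The positions in the DTT and vegetative libraries differed by at most 20 bp. The share with DTT therefore rests on replicate 2, which listed 6 of the 64 genes and 300 of all 6021. Replicate 1 listed 3 of the 64 and 360 of all 6021. ATG41 after RPL36B, an autophagy gene, was listed in both DTT and both 6 h BYTA libraries, at ranks 25 of 296, 27 of 245, 28 of 277 and 24 of 91, and in neither vegetative library. ADE16 after RPL15A and the Hsp70 gene SSA4 after RPS8B completed the genes listed with DTT or at 6 h in BYTA. The positions of the members before these genes are not in the SK1 tables, so whether the summits lie in those members was not determined.

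Neighbours in other orientations were counted by listing in at least 1 library, where the shares of all genes were 6.28% with DTT, 5.75% at 6 h in BYTA and 0.415% in vegetative cells. Of 69 head-to-head neighbours, 3 were listed with DTT, 4.35%, 6 at 6 h in BYTA, 8.7%, and in vegetative cells UTR5 alone, 1.45%. Of 57 same-strand genes before a member, whose windows face away from it, 2 were listed with DTT, 3.51%, 4 at 6 h in BYTA, 7.02%, and 0 in vegetative cells. Of 68 tail-to-tail neighbours, 5 were listed with DTT, 7.35%, 6 at 6 h in BYTA, 8.82%, and 0 in vegetative cells. No difference between these groups was tested, since neighbouring genes share summits.

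**Figure D4:**
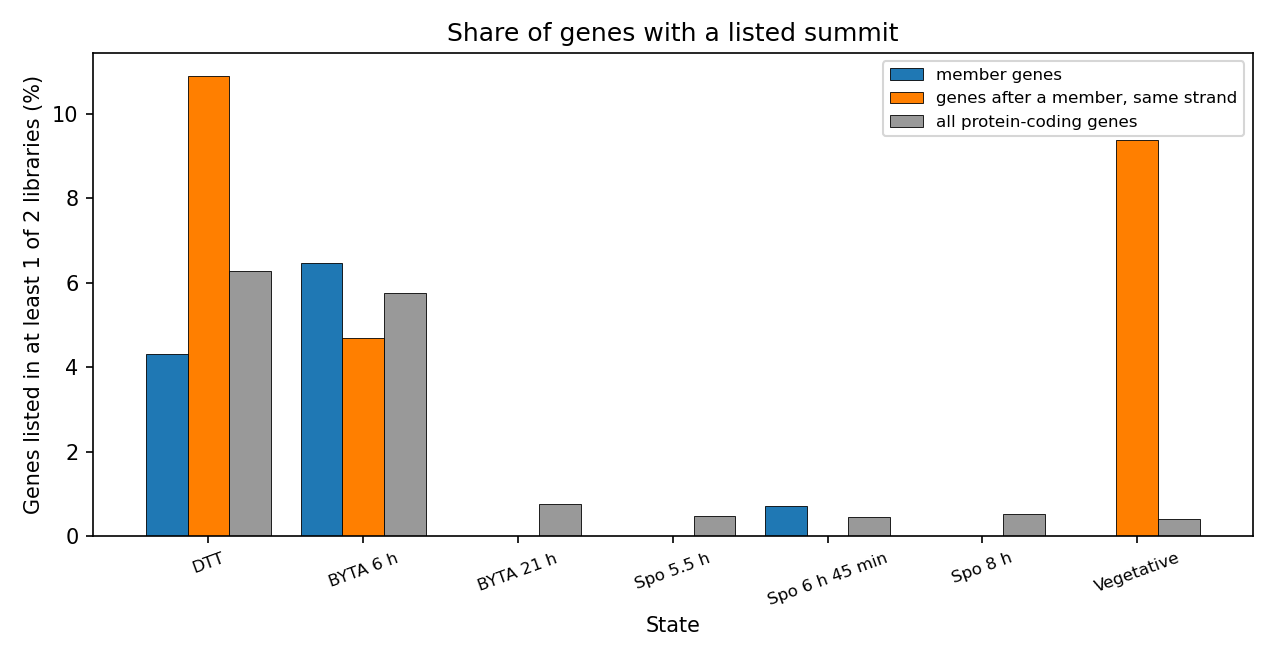
Share of genes listed in at least 1 of the 2 libraries (y axis, %) in each state (x axis), for the 139 members, the 64 genes that follow a member on the same strand, and all 6021 protein-coding genes. Bars are single values with no error. In vegetative cells the share is 0 for members, 9.38% for the genes after a member and 0.415% for all genes.

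Other genes of translation were counted by listing in both libraries, beside the same shares of all genes (4.68% with DTT, 1.74% at 6 h and 0.448% at 21 h in BYTA). Of 31 initiation factor genes, GCD6, which encodes a catalytic subunit of eIF2B, was listed in both DTT libraries, 287 bp upstream in each, and in no other library, which is 3.23% of that list with DTT. Of 16 elongation and release factor genes, RLI1, which encodes the ABC protein that recycles ribosomes, was listed in both DTT libraries at ranks 34 of 296 and 43 of 245, or 6.25% of its list. Replicate 1 at 6 h in BYTA also listed RLI1, at rank 237 of 277, together with TEF1 and TEF2, the gene pair of eEF1A, so 3 of 16 genes were listed in at least 1 library there, where 5.75% of all genes were. With lists this short, 1 gene moves a share by several percent. No gene of 20 cytosolic aminoacyl-tRNA synthetase genes was listed anywhere.

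Of 13 regulators of ribosomal protein genes, HMO1 and UTP22 were listed in both DTT libraries, 15.4% against 4.68% of all genes. HMO1 encodes a high-mobility-group protein found at ribosomal DNA and ribosomal protein genes. It was also listed in both libraries at 21 h in BYTA and at 6 h 45 min and 8 h in sporulation medium, where 1 gene is 7.69% of the list, against 0.448%, 0.216% and 0.282% of all genes. It always shared its summit with ARG82. With DTT the summit was almost equally far from both starts, at 238 and 235 bp from HMO1 and 240 and 243 bp from ARG82. HMO1 was the nearer gene in replicate 1 at 6 h in BYTA, at 221 against 257 bp. ARG82, at 185 to 211 bp, was nearer in the 7 libraries of 21 h BYTA and sporulation medium. IFH1, which encodes the coactivator of ribosomal protein genes, was listed in replicate 2 at 5.5 h and at 8 h in sporulation medium, 521 bp upstream, in a summit nearer to YLR224W. Rap1, Fhl1 and Sfp1, the other direct regulators named above, had no listed summit at their genes RAP1, FHL1 and SFP1.

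Of 130 ribosome assembly genes 4 were listed in both DTT libraries, FSF1, YTM1, NOG1 and BUD21, or 3.08% against 4.68% of all genes. FSF1 and YTM1 share 1 summit, always nearer to YTM1, and were also listed in both vegetative libraries, 1.54% of the list against 0.249% of all genes. NOG1 shares its summit with the translocon gene SEC62, which was always nearer. DBP3 was listed in DTT replicate 1. HAS1, an RNA helicase gene, was listed in both libraries at 21 h in BYTA, 0.769% of the list against 0.448% of all genes. It was also listed in replicate 2 at 5.5 h and 8 h in sporulation medium. Of 18 genes of RNA polymerase I, RPA14 was listed in both libraries at 21 h in BYTA and at 8 h in sporulation medium, always together with CPR1. There 1 gene is 5.56% of the list, against 0.448% and 0.282% of all genes. Of 25 genes of nascent chain and ribosome partners, MBF1 was listed in both libraries at 21 h in BYTA and at all 3 times in sporulation medium, 4% of the list against at most 0.448% of all genes in those states, and TMA10 in 1 library at 6 h in BYTA.

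Of 67 mitochondrial ribosomal protein genes, MRPL44 and RSM7 were listed in both DTT libraries, 2.99% against 4.68% of all genes, and RSM26 in 1. RSM7 was listed in both 6 h BYTA libraries as well, 1.49% against 1.74%. MRPS17 was listed in both libraries of the remaining 5 states, vegetative cells included, and in no library of DTT or 6 h BYTA, again 1.49% of the list, against at most 0.448% of all genes in those 5 states. Its summits lay 174 to 196 bp upstream, in a window pair shared with GCV2.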

How the data were processed

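The submitters' processing notes name ChIPseeker 1.44.0, MACS2 2.2.9.1, SAMtools 1.7 and Bowtie2 2.3.4.1 without their roles. Not given in the sources used here are the SK1 assembly, the control of each peak call, the read depth and the rule by which summits were kept. Per the file headers, each row of a deposited table pairs a peak summit and its score with a 600-bp promoter window and a gene. Peak names carry 1 library name per table, which shows separate peak calls for each library. The score, whose type the headers do not name, served to order or filter the summits of 1 table and nothing else. Positions are those of the deposited SK1 tables.

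The 14 tables held 1055 summits, 1369 pairs and 551 genes with a systematic name. Another 10 identifiers without one were left out. All 551 matched the RefSeq R64 gene table, which gave the 139 members, the 6021 protein-coding genes and gene order. A call required listing in both libraries of a state, and a summit in 2 windows counted for both genes. Numbers of members per library were compared with two-sided exact permutation tests over 2 libraries against 2 (SciPy 1.17.1), Benjamini-Hochberg adjusted over 6 comparisons. Gene sets were described beside the share of all genes, without a set test. The rule that makes the calls was checked on simulated lists, which cannot test the peak calls or the noise between replicates. Every listed member is named, with genes sharing its summits, copies of listed members, and called genes of 8 other lists. One entry of the synthetase list matched no gene. The members and lists were chosen with earlier results of these data known. A planned motif comparison was not run, since no promoter sequence was used here.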

Additional observations from a re-analysis of the deposited data

How the results depend on the processing

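Members listed in both libraries numbered 3 with DTT, and 2 when summits were assigned to the closest start alone or only the best 100 summits of each library were kept. Listing in at least 1 library gave 6, which is 4.32% of members against 6.28% of all genes, and single replicates gave 3 to 6. At 6 h in BYTA the 2 called members became 9 with listing in at least 1 library, 6.47% of members against 5.75% of all genes. The count was 2 to 9 with single replicates and 1 with the nearest gene only, which removes EFB1. At 6 h 45 min in sporulation medium the count of 0 became 1 with listing in at least 1 library, 0.719% against 0.448% of all genes. It was 0 to 1 with single replicates. Scores of at least 500 changed none of the counts in these 3 states, and in the other 4 states every setting gave 0 members.

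Genes after a member, a grouping added after the data were seen, numbered 2 in both DTT libraries. They numbered 7 with listing in at least 1 DTT library, 3 to 6 with single replicates and 1 among the best 100 summits. At 6 h in BYTA the 1 gene became 3 with listing in at least 1 library and 1 to 3 with single replicates. In vegetative cells the 2 genes became 6 with listing in at least 1 library and 3 to 5 with single replicates.

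With the replicate number as a block, the differences of 4.5 members (DTT) and 5.5 members (6 h BYTA) against vegetative cells stayed as they were, with an exact sign-flip p = 0.5, the smallest that 2 pairs allow, and no comparison passed with or without the block. The labels tie the libraries by number only. The correlation of deviations with the vegetative libraries ran from -0.07 to 0.02 over the 6 states. Of the 551 genes only 25 were listed in vegetative cells, 15 of them in both libraries, so this correlation cannot tell whether the replicates were paired. Without replicate 1 or 2 these differences ran from 3 to 6 with DTT, 2 to 9 at 6 h in BYTA and 0 to 1 at 6 h 45 min in sporulation medium. With the best 100 summits of each library both differences were 2, with scores of at least 500 they were 4 (DTT) and 3.5 (6 h BYTA), and with the closest start alone 3.5 (DTT) and 4.5 (6 h BYTA), at an exact permutation p of 0.33 each. The planned share of promoters holding a motif was not run. Read depth is unknown, so the limit below which a summit went unlisted cannot be given in reads.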

Other observations

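At 3 promoters of the translation lists the summit position differed between libraries of DTT or 6 h BYTA and those of later states. HMO1 summits lay 238 and 235 bp upstream with DTT and 221 bp upstream in replicate 1 at 6 h in BYTA, against 267 to 293 bp in the 7 libraries of 21 h BYTA and sporulation medium that listed it. RPA14 summits lay 267 bp upstream in DTT replicate 1 and 274 bp upstream in 6 h BYTA replicate 1, against 154 to 174 bp in 6 later libraries. MBF1 summits lay 208 bp upstream in DTT replicate 1 and 201 bp upstream in 6 h BYTA replicate 1, against 243 to 263 bp in 8 later libraries. Each of these summits lay in a second window, of ARG82 at HMO1, CPR1 at RPA14 and BUD7 at MBF1. ARG82 was nearer than HMO1 in the later libraries, while with DTT it was almost as near as HMO1, at 240 and 243 bp. CPR1 was slightly nearer than RPA14 with DTT and 6 h BYTA, at 258 and 251 bp, and RPA14 was nearer in the later libraries. MBF1 was nearer throughout. The ranges did not overlap at these 3 promoters, which were chosen after their values were seen and not tested. A lack of overlap was common between DTT and 6 h BYTA, at 62.3% of 77 genes. For the later states the share over all genes was not computed, so these promoters are not shown to be unusual.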
